A study of Mus musculus with 5 samples.

Results

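Polycomb proteins keep developmental genes silent through marks on histones. Polycomb repressive complex 2 (PRC2) methylates lysine 27 of histone H3 (H3K27) through Ezh2 or its paralog Ezh1, held in an active complex by Eed and Suz12 and directed in part by Jarid2, and Polycomb repressive complex 1 (PRC1) ubiquitylates histone H2A through Rnf2 or Ring1, together with a PCGF protein such as Bmi1 and, in its canonical form, a CBX protein that binds methylated H3K27. In the developing cerebral cortex these complexes are known for restraining differentiation genes in progenitor cells, and Ezh2 is typically high in dividing progenitors while Ezh1 persists in cells that no longer divide. The genes of 10 such subunits, Ezh1, Ezh2, Eed, Suz12, Jarid2, Rnf2, Ring1, Bmi1, Cbx2 and Cbx8, were taken by name from the 23997 genes of an RNA-seq table of the mouse cortex lacking Uhrf1. All 10 names were found, and all 10 passed the filter on low values that left 14692 genes for testing.

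RNA from the entire cortex of C57BL/6 embryos at embryonic day 16 (E16) was sequenced in 3 control libraries (MG15, MG16 and MG17, labelled Uhrf1 +/-) and 2 conditional knockout (cKO) libraries (MG18 and MG19, labelled Uhrf1 -/-). Uhrf1 encodes a protein that brings the DNA methyltransferase Dnmt1 to newly copied DNA. By the study's methods, embryos of both groups carried a Cre driven from Emx1, which acts in the dorsal telencephalon and removes a floxed exon of Uhrf1, so that controls also lacked 1 Uhrf1 allele in the cells where Cre acted. Interneurons, vessels, microglia and other cells outside the Emx1 lineage kept Uhrf1 in cKO cortices. The libraries were called biological replicates by the study. P-values rest on the spread between these 5 libraries, which limma draws toward that of other genes of like level. In RNA from a whole tissue, fewer cells of a type and less RNA per cell cannot be told apart.

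The deposited values were FPKM, fragments per kilobase of transcript and per mapped library size, so levels of different genes could be compared per length within a library. Depth was not given and was estimated from the steps between low values at about 39000000, 15000000 and 11000000 fragments in MG15, MG16 and MG17 and about 8100000 and 9900000 in MG18 and MG19. At these depths Ring1, the subunit with the fewest fragments, rested on about 130 of them in its lowest library. Uhrf1 was measured at 7.24, 13.2 and 12.95 FPKM in controls and at 2.75 and 2.61 FPKM in cKO (log2 fold change -1.97 with an SE of 0.28, adjusted p = 0.00752, limma). Leaving out MG18 gave adjusted p = 0.275 and leaving out MG19 gave adjusted p = 0.311. Progenitor markers such as Fabp7 and neuronal markers of the cortex were present in every library.

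In this comparison of cKO with control cortices, 9 of the 10 Polycomb subunit genes did not pass even an unadjusted p of 0.05. Ezh2 had the lowest cKO level relative to control, at 74.1% of the control mean, and it was the only subunit with an unadjusted p under 0.05 (limma). No subunit passed an adjusted p of 0.05 or changed by 2-fold. Of the 10 subunits, 1 was lower at an unadjusted p under 0.05, against 5.17% of all genes tested, and 0 were higher, against 6.36% of all genes tested. The share of subunits below that threshold was thus 1 in 10, close to the 11.5% of all genes tested that passed in either direction. At the thresholds of the study, an unadjusted p under 0.05 with over 2-fold change, 0 of 10 passed, against 4.03% of all genes tested, and at an adjusted p under 0.05 also 0 of 10, against 1.26%. In the 9108 genes averaging 5 FPKM or more, a level that all 10 subunits exceeded, 3.73% were higher and 5.57% lower at the unadjusted p, 9.3% in all, and 0.615% passed the thresholds of the study. The 2 cKO libraries lay outside the control range for 4 subunits, 3 above it and 1 below it, against 14.5% above, 16.3% below and 30.8% in all among the genes tested. For the genes averaging 5 FPKM or more these shares were 10.2%, 19.8% and 30%.

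The log2 fold change was positive for 6 subunits and negative for 4, with 4 of 5 positive among PRC1 subunits and 2 of 5 among PRC2 subunits. The median log2 fold change of the 10 was 0.12, beside -0.02 over all genes tested and -0.06 over those averaging 5 FPKM or more. The 95% interval of every subunit lay within a 2-fold change either way. For 4 of them, Ezh1, Suz12, Rnf2 and Bmi1, it also lay within 1.5-fold.

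**Figure D1:**
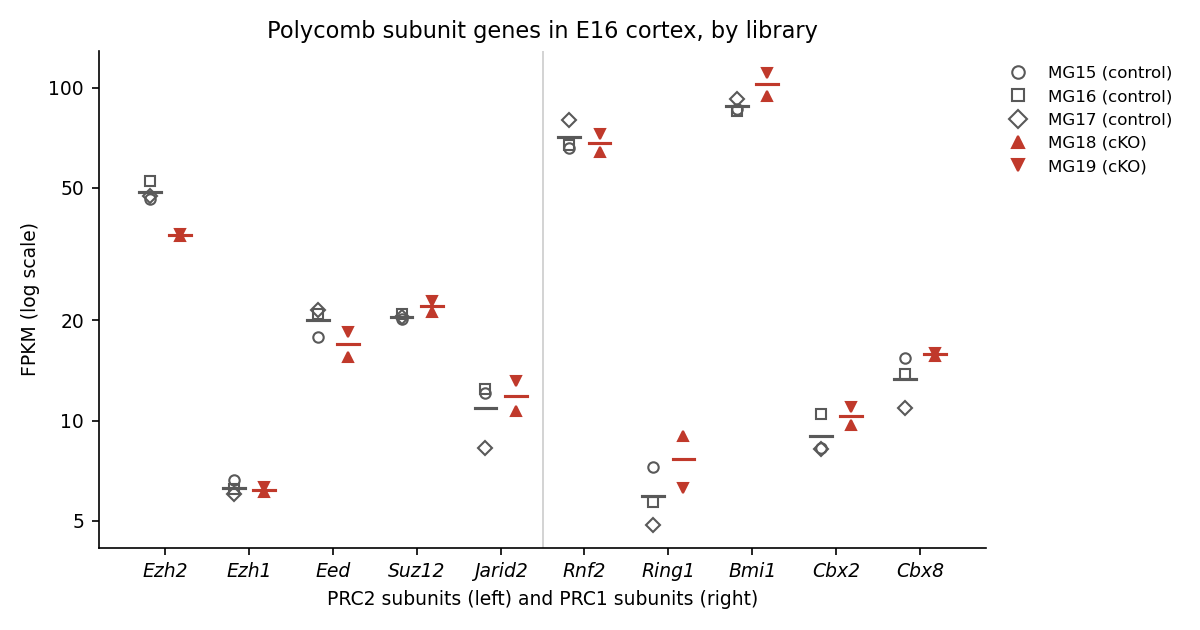
FPKM (log axis) of the 10 subunits in each of the 5 libraries, with open grey symbols for control, filled red symbols for cKO and bars for the mean of each group. The groups are apart for Ezh2 (cKO lower) and for Suz12, Bmi1 and Cbx8 (cKO higher), and they overlap for the other 6.

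**Figure D2:**
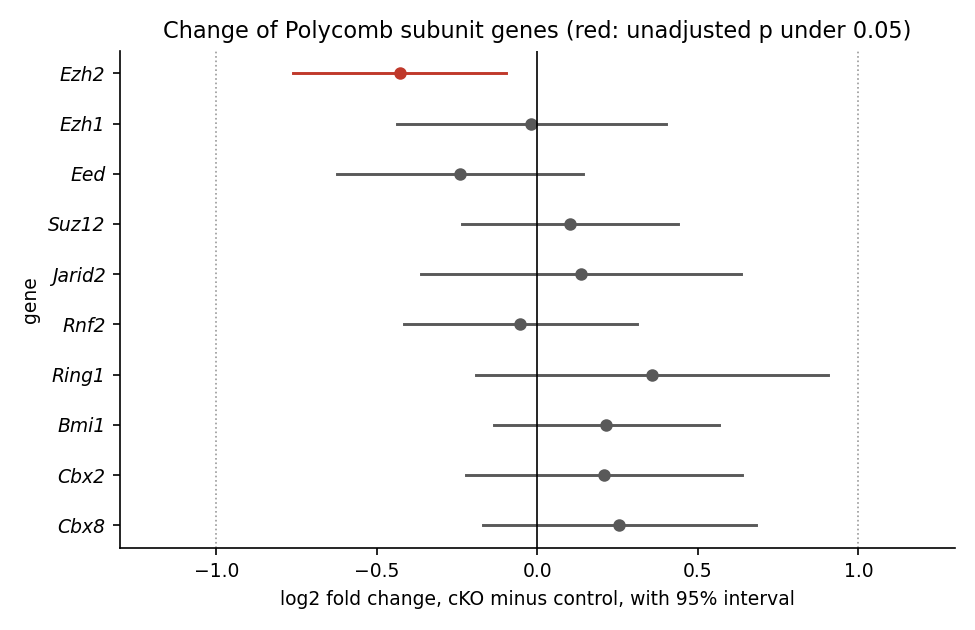
Log2 fold change (cKO over control, from log2(FPKM + 0.1) values) of each subunit with its 95% interval from limma, PRC2 and PRC1 subunits in order of role. The interval of Ezh2, from -0.76 to -0.10, lies below 0, and the other 9 include 0.

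Levels within the control cortex spanned from 88.1 FPKM for Bmi1 to 5.95 FPKM for Ring1, as control means. Below Bmi1 came Rnf2 at 71.0 FPKM and Ezh2 at 48.7 FPKM, and the control ranges of these 3 genes were separate from each other and from the next gene in order. Suz12 at 20.5 FPKM and Eed at 20.1 FPKM overlapped in controls, as did Cbx8 at 13.4 FPKM with Jarid2 at 10.9 FPKM and Jarid2 with Cbx2 at 8.99 FPKM. At the low end Ezh1 at 6.29 FPKM and Ring1 also overlapped. Each complex therefore had an abundant and a scarce catalytic paralog at this age, Ezh2 over Ezh1 and Rnf2 over Ring1.

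Ezh2, the main H3K27 methyltransferase of dividing cells (chr6:47530274-47595270, GRCm38), was measured at 46.5, 52.6 and 47.2 FPKM in controls and at 35.9 and 36.3 FPKM in cKO. Both cKO libraries lay below the lowest control, and they differed from each other by less than the controls did. The mean was 48.7 ± 3.36 FPKM (SD, n = 3) in control and 36.1 ± 0.298 FPKM (SD, n = 2) in cKO, a log2 fold change of -0.43 (SE 0.15, 95% interval -0.76 to -0.10) with an unadjusted p of 0.0168 and an adjusted p of 0.310 (limma). An exact two-sided permutation test of the FPKM values gave p = 0.1, the smallest that 3 libraries against 2 allow. Of all genes tested, 5.42% had a lower p. The difference was past an unadjusted p of 0.05 in 10 of 14 alternative analyses, with adjusted p between 0.246 and 0.582. In limma it was not past it without MG16 (unadjusted p = 0.0671), without MG18 (unadjusted p = 0.0572), without MG19 (unadjusted p = 0.0503) or with libraries scaled to their summed FPKM without small RNAs (log2 fold change -0.28, unadjusted p = 0.123). That scaling moved the median of all genes from -0.02 to 0.12, and relative to this median Ezh2 stood at -0.41.

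Ezh1, the paralog with weaker methyltransferase activity (chr11:101191115-101226463), was measured at 6.61, 6.25 and 6.01 FPKM in controls and at 6.10 and 6.31 FPKM in cKO. The cKO libraries lay inside the control range, and the log2 fold change was -0.02 (SE 0.19, 95% interval -0.44 to 0.40, adjusted p = 0.975, limma). The Ezh2 to Ezh1 ratio, which does not depend on how a library was scaled, was 7.03, 8.42 and 7.85 in controls and 5.89 and 5.76 in cKO. Both cKO ratios lay below every control ratio, with a mean of 7.76 ± 0.700 (SD, n = 3) in control and 5.82 ± 0.0920 (SD, n = 2) in cKO. This ratio was given as a description and not tested.

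**Figure D3:**
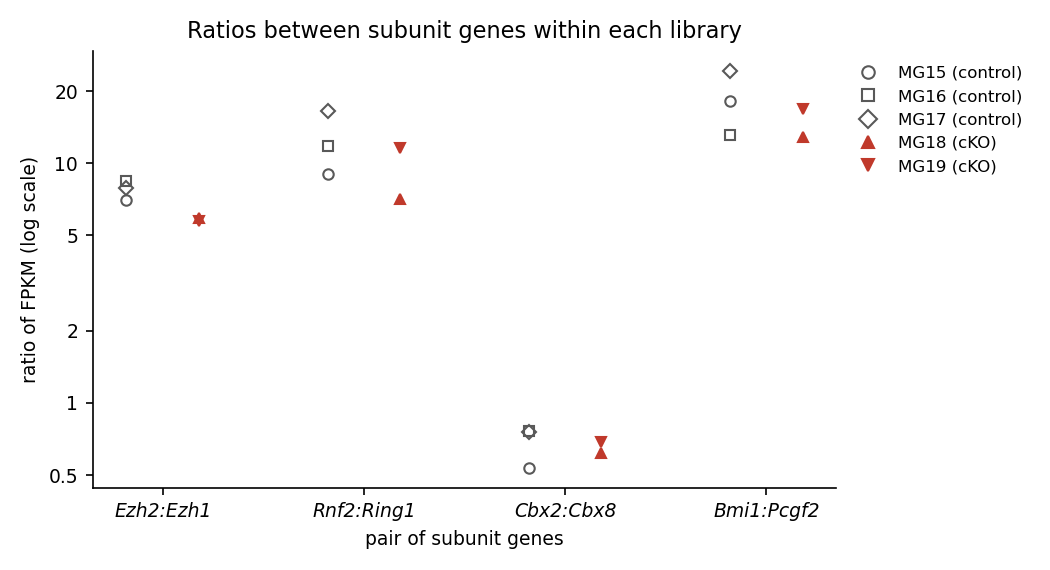
Ratio of FPKM between paired subunit genes (log axis) in each library, with open grey symbols for control and filled red symbols for cKO. The Ezh2 to Ezh1 ratio is lower in both cKO libraries than in every control, and the other 3 ratios overlap between groups.

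The promoters of these genes were rich in CpG sites, where DNA methylation is placed. RefSeq promoters (GRCm38.p6, 250 bases before the start to 50 after it) were matched for 9 of the 10 genes, with 2 for Jarid2. The 10 promoters had a median of 24 CpG sites and 65.2% GC, beside 7 CpG sites and 52.7% GC over 32851 promoters of 27025 genes. The stretch from 153 to 29 bases before the start is shown for the paralogs Ezh2 and Ezh1 and for Suz12, whose promoter held the most CpG sites among the 10, with each CG in capitals. They lie at chr6:47595059-47595183 on the minus strand, at chr11:101226492-101226616 on the minus strand and at chr11:79992953-79993077 on the plus strand. The start is that of the promoter entry. For Ezh2 the gene span given above reaches further upstream, to 47595270, so the Ezh2 stretch lies inside that span.
Ezh2: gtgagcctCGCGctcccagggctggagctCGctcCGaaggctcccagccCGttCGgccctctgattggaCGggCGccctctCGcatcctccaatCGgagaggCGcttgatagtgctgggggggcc
Ezh1: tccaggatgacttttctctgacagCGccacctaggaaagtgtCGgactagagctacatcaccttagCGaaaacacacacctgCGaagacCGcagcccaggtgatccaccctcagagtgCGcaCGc
Suz12: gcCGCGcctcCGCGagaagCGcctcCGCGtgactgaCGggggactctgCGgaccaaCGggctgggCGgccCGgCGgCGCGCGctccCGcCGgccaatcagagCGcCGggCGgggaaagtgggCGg
These stretches held 11, 7 and 22 CpG sites. Over the whole promoter the counts were 31 for Ezh2, 23 for Ezh1 and 41 for Suz12. Methylation of these sites was not analysed here.

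Short motifs of known factors were searched in the promoters on both strands, and each match is a description only. E2F motifs, bound by the factors that switch on genes of DNA replication, were searched as TTTGGCGC, TTTCCCGC, TTTCGCGC and TTTGCCGC. Any of these 4 stood in 2.26% of all promoters and in those of 2 subunits, Ezh2 and Suz12. The CRE motif TGACGTCA, bound by CREB factors, stood in 1.79% of all promoters and in that of Cbx8. The matches are shown in windows of 30 bases with the motif in capitals, at chr6:47595009-47595038 on the minus strand, chr11:79992876-79992905 on the plus strand and chr11:119040924-119040953 on the minus strand.
Ezh2: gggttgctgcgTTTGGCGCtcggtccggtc
Suz12: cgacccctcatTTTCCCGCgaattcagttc
Cbx8: gggaggagaacTGACGTCAgcgggagagta
Of the subunits with an E2F match, Ezh2 had a log2 fold change of -0.43 and Suz12 of 0.10, with a 95% interval from -0.24 to 0.44 for Suz12. A role of E2F factors in these values was not tested. GGGCGG, the GC box of SP factors, stood in 35.7% of all promoters and in those of 6 subunits, and the E-box CACGTG in 7.15% and in those of 2. The motifs GCGCATGC of NRF1 and CCGGAAGT of ETS factors stood in 2.71% and 3.89% of all promoters and in none of the 10 subunit promoters.

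Eed, the subunit that reads methylated H3K27 and stimulates the enzyme (chr7:89954654-89980976), was measured at 17.8, 20.9 and 21.5 FPKM in controls and at 15.5 and 18.4 FPKM in cKO. MG18 was below and MG19 inside the control range. The log2 fold change was -0.24 (SE 0.17, 95% interval -0.62 to 0.14, unadjusted p = 0.188, adjusted p = 0.608, limma). Suz12, which scaffolds the complex (chr11:79993106-80034123), was measured at 20.3, 21.0 and 20.4 FPKM in controls and at 21.2 and 22.9 FPKM in cKO. Its control libraries were close to each other, with a highest to lowest ratio of 1.03, and both cKO libraries lay just above them. The log2 fold change of Suz12 was 0.10 (SE 0.15, 95% interval -0.24 to 0.44, adjusted p = 0.815, limma). Over the core of PRC2, the values were thus negative for Ezh2 and Eed and positive for Suz12.

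Jarid2, an accessory subunit that helps to recruit PRC2 to chromatin (chr13:44730774-44921643), was measured at 12.1, 12.5 and 8.27 FPKM in controls and at 10.7 and 13.1 FPKM in cKO. The low control library MG17 set the sign of its log2 fold change, which was 0.14 (SE 0.22, 95% interval -0.36 to 0.64, adjusted p = 0.837, limma) with it and -0.05 without it. It was also -0.01 without MG19. The other 9 histone-binding and accessory genes of PRC2 had a median log2 fold change of 0.04, with 5 positive and 4 negative. This median was -0.11 without MG15 and 0.19 with scaling to the summed FPKM without small RNAs, and 0 of 9 passed an unadjusted p of 0.05, or 1 with that scaling. Rbbp4, a histone chaperone shared with other chromatin complexes, was measured at 88.0, 87.4 and 119 FPKM in controls and at 78.9 and 77.9 FPKM in cKO (log2 fold change -0.31, unadjusted p = 0.120, limma). Both cKO libraries lay below the controls. Mtf2, a Polycomb-like protein that binds CpG-rich DNA, was measured at 40.7, 41.9 and 51.8 FPKM in controls and at 33.6 and 42.4 FPKM in cKO, with overlapping groups (log2 fold change -0.24).

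Rnf2, the main ubiquitin ligase of PRC1 (chr1:151469398-151500991), was measured at 65.8, 67.2 and 79.9 FPKM in controls and at 64.0 and 72.6 FPKM in cKO. MG18 was just under the control range and MG19 inside it. Its log2 fold change was -0.05 (SE 0.16, 95% interval -0.42 to 0.31, adjusted p = 0.917, limma), and its sign turned in 4 of 14 alternatives, as given with the alternatives. Ring1, the second ligase (chr17:34020792-34024680), was measured at 7.27, 5.71 and 4.85 FPKM in controls and at 9.02 and 6.30 FPKM in cKO. MG18 was the highest of the 5 libraries and MG19 lay inside the control range. For Ring1 the log2 fold change was 0.36 (SE 0.24, 95% interval -0.19 to 0.91, unadjusted p = 0.177, adjusted p = 0.597, limma). The Rnf2 to Ring1 ratio ranged from 9.05 to 16.5 in controls and was 7.10 and 11.5 in cKO, with overlapping groups.

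Bmi1, the PCGF subunit known for keeping neural stem cells dividing (chr2:18677018-18686629), was measured at 86.3, 85.3 and 92.7 FPKM in controls and at 94.6 and 110.4 FPKM in cKO. Both cKO libraries were above every control, and MG19 was further above. The log2 fold change was 0.21 (SE 0.16, 95% interval -0.13 to 0.56, unadjusted p = 0.199, adjusted p = 0.618, limma). In limma it passed an unadjusted p of 0.05 in 2 of 14 alternatives, quantile normalization (0.37, unadjusted p = 0.0324) and scaling to the summed FPKM without small RNAs (0.36, unadjusted p = 0.0483), and stood at 0.24 relative to the median of all genes under that scaling. Pcgf2, the closest paralog of Bmi1, was measured at 4.75, 6.49 and 3.81 FPKM in controls and at 7.37 and 6.58 FPKM in cKO. Both cKO libraries lay above the controls (log2 fold change 0.50, unadjusted p = 0.0750, limma). The Bmi1 to Pcgf2 ratio was between 13.2 and 24.3 in controls and was 12.8 and 16.8 in cKO, overlapping between groups.

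The CBX genes Cbx2 (chr11:119023019-119031275) and Cbx8 (chr11:119036303-119040913) lie next to each other, 5.03 kb apart, and both encode proteins that recognise methylated H3K27 in canonical PRC1. Cbx2, which compacts chromatin, was measured at 8.26, 10.5 and 8.22 FPKM in controls and at 9.70 and 11 FPKM in cKO. These groups overlapped, with MG16 between the cKO libraries (log2 fold change 0.21, SE 0.19, 95% interval -0.22 to 0.64, adjusted p = 0.692, limma). Cbx8 was measured at 15.4, 13.8 and 10.9 FPKM in controls and at 15.7 and 15.99 FPKM in cKO. Its cKO libraries were just above the highest control, MG15 (log2 fold change 0.26, SE 0.19, 95% interval -0.17 to 0.68, unadjusted p = 0.208, adjusted p = 0.625, limma). The Cbx2 to Cbx8 ratio was 0.535, 0.762 and 0.753 in controls and 0.619 and 0.688 in cKO, with overlap.

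Of 9 other canonical subunits, 8 had a positive log2 fold change, beside 47.8% of all genes tested. The median was 0.33, between 0.09 and 0.47 over the alternatives, beside -0.02 over all genes. Phc2, a polyhomeotic protein that links PRC1 complexes to each other, had the highest mean level of this list and was measured at 30.5, 34.8 and 33.4 FPKM in controls and at 35.8 and 31.7 FPKM in cKO (log2 fold change 0.04). Phc1, its paralog, was measured at 11.1, 15.7 and 11.1 FPKM in controls and at 17.7 and 15.6 FPKM in cKO, with overlap at MG16 and MG19 (log2 fold change 0.41, unadjusted p = 0.0702, limma). The 19 subunits of variant PRC1, which contain no CBX protein, had a median of 0.08, and 0 of 19 passed an unadjusted p of 0.05. Dcaf7, with the highest level among them, was measured at 72.8, 74.3 and 59.0 FPKM in controls and at 77.4 and 74.2 FPKM in cKO (log2 fold change 0.15), with overlap. Pcgf3, a PCGF protein of variant complexes, was measured at 38.3, 38.2 and 30.3 FPKM in controls and at 39.1 and 41.0 FPKM in cKO (log2 fold change 0.18), just above the controls.

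Among genes that act against Polycomb silencing, 10 of 13 had a positive log2 fold change, beside 47.8% of all genes tested. The 3 with a negative value were Bap1 (-0.17), Usp16 (-0.17) and Mysm1 (-0.12), and for Usp16 both cKO libraries lay below the controls. Of the 13, 3 were higher at an unadjusted p under 0.05, against 6.36% of all genes tested, with 0 of 13 lower and 0 past an adjusted p of 0.05. The median log2 fold change was 0.21, between 0.05 and 0.35 over the alternatives. Asxl3, a partner of the H2A deubiquitinase Bap1, was measured at 3.27, 3.67 and 4.46 FPKM in controls and at 5.50 and 6.37 FPKM in cKO (log2 fold change 0.64, SE 0.22, unadjusted p = 0.0180, adjusted p = 0.320, limma). Kmt2a and Kmt2b, trithorax-group methyltransferases of lysine 4 of histone H3, were the others. Kmt2a was measured at 3.87, 5.23 and 3.98 FPKM in controls and at 6.05 and 6.73 FPKM in cKO (log2 fold change 0.55, unadjusted p = 0.0319, adjusted p = 0.389, limma). Kmt2b was measured at 2.15, 2.95 and 2.46 FPKM in controls and at 3.94 and 3.60 FPKM in cKO (log2 fold change 0.57, unadjusted p = 0.0400, adjusted p = 0.408, limma). In all 3 genes both cKO libraries lay above every control, which the rule for naming them required. Of the 13 genes, 4 lay wholly above the controls and 1 below, against 14.5% and 16.3% of all genes tested. The number past an unadjusted p of 0.05 was 0 without MG15 or without MG19 and 1 without MG17 or without MG18, and lay between 0 and 4 over the alternatives. Without MG15 the p was 0.0679 for Asxl3, 0.101 for Kmt2a and 0.132 for Kmt2b, and without MG19 it was 0.114, 0.151 and 0.0829. Kmt2a and Kmt2b also missed it without MG17, at 0.0596 and 0.0594, and without MG18, at 0.0743 and 0.143.

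**Figure D4:**
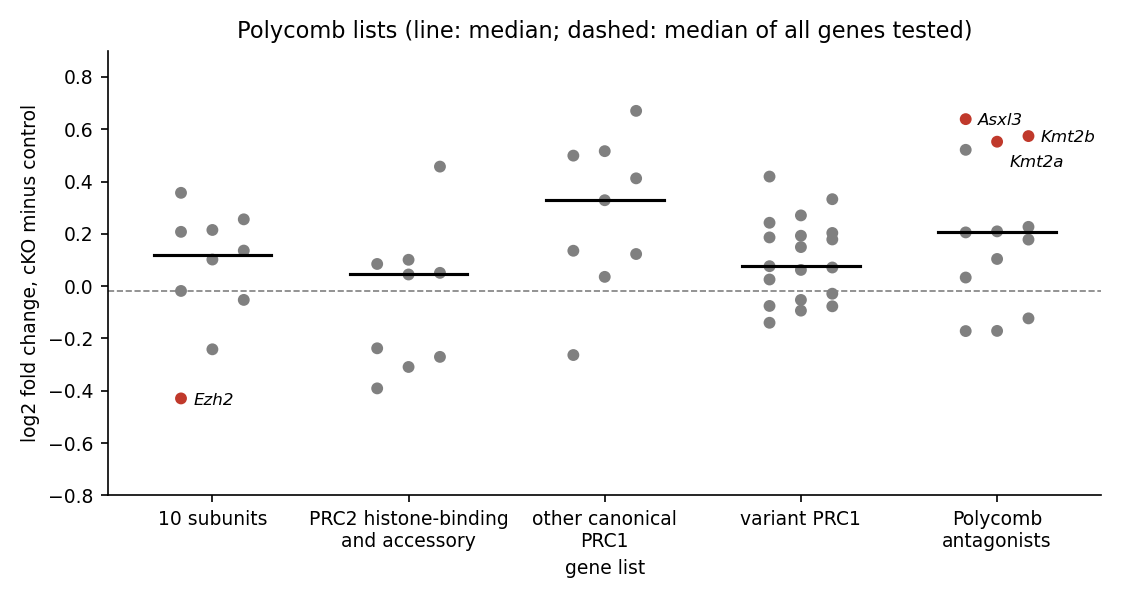
Log2 fold change (cKO minus control, log2(FPKM + 0.1) scale) of each gene in 5 Polycomb lists, 1 point a gene, with red points for an unadjusted p under 0.05 (limma). Horizontal lines mark the list medians, from 0.04 for the PRC2 accessory genes to 0.33 for the other canonical PRC1 genes, and the dashed line marks the median of all genes tested at -0.02.

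Genes that Polycomb proteins typically silence were low in both groups, and some were higher in cKO libraries. Of 39 Hox genes, which pattern the body axis and are classic Polycomb targets, 30 were listed at 0 FPKM in every library and 1 passed the filter on low values. This gene, Hoxc9, stood at 0 FPKM in the 3 controls, at 0.689 FPKM in MG18 and at 0.194 FPKM in MG19. It reached the filter through the cKO libraries alone, so no test is given. Summed over the 39 Hox genes, the level was between 0 and 0.0622 FPKM in controls and between 0.499 and 1.05 FPKM in cKO. Hoxc9 alone held 0.689 of the 1.05 FPKM in MG18 and 0.194 of the 0.499 FPKM in MG19. Values this low rest on few fragments. Of 23 targets outside the Hox clusters, 10 were listed at 0 in every library and 6 passed the filter. Each of the 6 had a positive log2 fold change, beside 47.8% of all genes tested. A low gene could pass the filter through the cKO group alone. Control means of these 6 also reached 0.1 FPKM, from 0.132 FPKM for Tbx15 to 0.807 FPKM for Sox17. The 17 targets under the filter were not tested. For Tbx15, 1 of the 6, the mean FPKM was lower in cKO, at 94.9% of control. The summed level of the 23 was between 1.55 and 2.03 FPKM in controls and at 7.10 and 2.82 FPKM in MG18 and MG19. Cdkn2a alone held 4.04 of the 7.10 FPKM in MG18 and 0.320 of the 2.82 FPKM in MG19. Sox17 held between 0.726 and 0.869 FPKM of the control sums, and 1.21 and 1.11 FPKM of those in MG18 and MG19. Cdkn2a, the locus of cell cycle inhibitors that Bmi1 is known to repress, was measured at 0.0581, 0 and 0.499 FPKM in controls and at 4.04 and 0.320 FPKM in cKO. It was high only in MG18, and MG19 lay inside the control range. The log2 fold change of Cdkn2a was 2.64 (SE 0.98, unadjusted p = 0.0235, adjusted p = 0.353, limma) and it was 0.99 (unadjusted p = 0.394) without MG18 and 2.10 (unadjusted p = 0.0671) without MG16. Cdkn2b, its neighbour with a like role, was measured at 0.273, 0 and 0.333 FPKM in controls and at 0.835 and 0.524 FPKM in cKO (log2 fold change 1.60, unadjusted p = 0.0335, adjusted p = 0.393, limma). Both cKO libraries were above the controls, and the p was 0.0737 without MG16, 0.222 without MG18 and 0.1003 without MG19.

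Several markers of dividing and progenitor cells were lower beside Ezh2. Of 13 markers of apical and intermediate progenitors, 11 had a negative log2 fold change and 5 fell at the unadjusted p of 0.05, and of 18 markers of cycling cells 15 were negative and 3 fell, against 5.17% of all genes tested, with 0 past an adjusted p of 0.05 in either list. Their medians were -0.41 and -0.33. Summed FPKM was between 1607 and 2289 in controls and between 1237 and 1496 in cKO for progenitor markers, and between 402.7 and 596.4 in controls and between 354.1 and 406.6 in cKO for cycling markers, so that the summed level of cycling markers overlapped. Fabp7, a lipid-binding protein of radial glia, was measured at 1153, 923 and 1479 FPKM in controls and at 899 and 729 FPKM in cKO, and Top2a, the topoisomerase of dividing cells, at 63.5, 78.3 and 91.5 FPKM in controls and at 45.4 and 57.0 FPKM in cKO (log2 fold change -0.59, unadjusted p = 0.0130, limma). No marker of either list was at 0 in every library.

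The level of Ezh2 relative to these markers did not separate the groups. Its log2 value minus the mean of the cycling markers, both centred on the control mean, was 0.19, 0.16 and -0.35 in controls and -0.04 and -0.23 in cKO. Minus the mean of the progenitor markers it was 0.18, 0.12 and -0.29 in controls and -0.12 and 0.06 in cKO. In both cases the cKO libraries lay inside the control range, which was wide because MG17 had high marker levels and a middling Ezh2 level. The part of progenitor and cycling cells in the lower Ezh2 level was not tested.

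**Figure D5:**
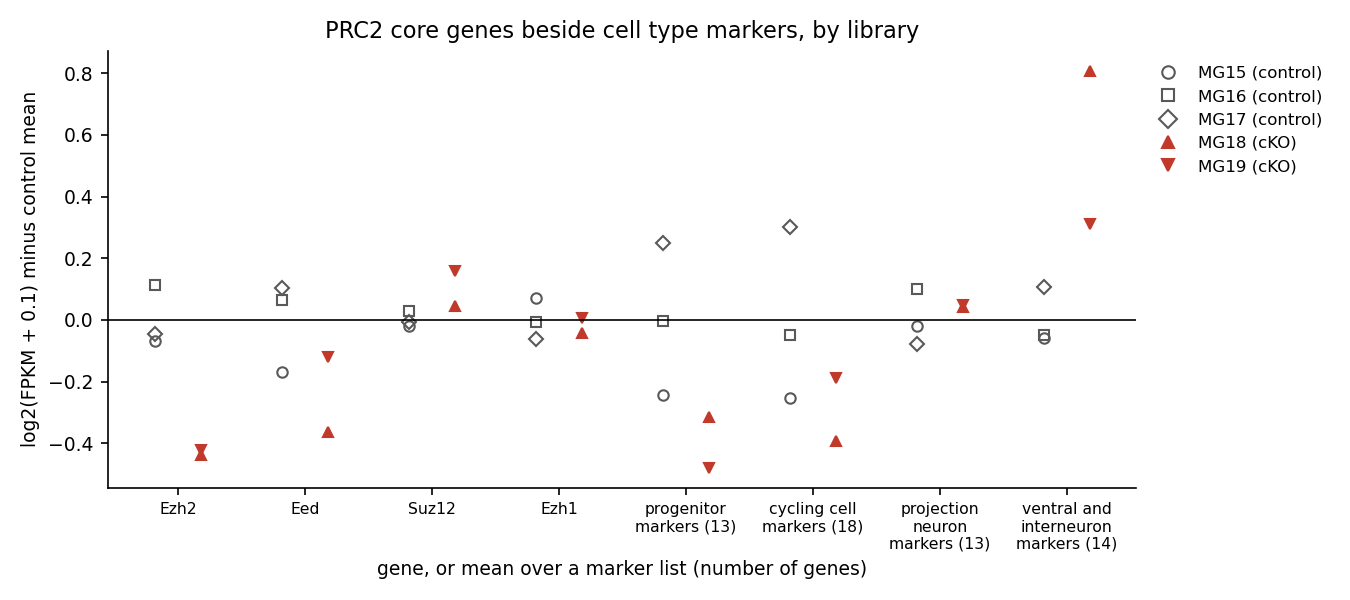
Log2(FPKM + 0.1) minus the control mean for Ezh2, Eed, Suz12 and Ezh1 and for the mean of 4 marker lists, by library, with open grey symbols for control and filled red symbols for cKO. Ezh2 and the progenitor markers are below every control in both cKO libraries, and the projection neuron markers are inside the control range.

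Among markers of other cells in the cortex, 0 passed an adjusted p of 0.05 in any list. The median log2 fold change was 0.03 over 13 markers of cortical projection neurons, of which 1 was higher and 0 lower at an unadjusted p under 0.05. Of 14 markers of the ventral telencephalon and interneurons, cells that lie outside the Emx1 lineage, 6 were higher and 1 lower at that p, with a median of 0.63 and a summed level between 129.6 and 144.8 FPKM in controls and of 240.0 and 148.7 FPKM in MG18 and MG19. Markers higher at that p, against 6.36% of all genes tested, numbered 3 of 5 for the oligodendrocyte lineage (median 0.77), 3 of 7 for microglia (0.49), 1 of 7 for endothelium (0.26), 2 of 5 for the meninges (1.06) and 1 of 7 for erythroid cells (-0.47), and 2 of the erythroid markers were lower. The part of the cells of these lists in the values of the Polycomb genes was not tested.

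Extreme values of several subunits came from the same library. MG17 had the lowest value of all 5 libraries for 5 subunits, Ezh1, Jarid2, Ring1, Cbx2 and Cbx8, and the highest for Eed and Rnf2. MG19 had the highest value for 5, Suz12, Jarid2, Bmi1, Cbx2 and Cbx8, and the lowest for 0. MG18 had the lowest value for Ezh2, Eed and Rnf2 and the highest for Ring1. Y-linked transcripts were detected in MG15, MG17 and MG18, so that each group held both sexes, and with sex as a covariate the log2 fold change of Ezh2 was -0.45 (unadjusted p = 0.0174, limma). Annotated genes on the opposite strand overlap Ezh2, Eed, Suz12 and Rnf2. The library kit kept strand, but whether the counting used it is not given in the sources used here, so fragments of these partners cannot be told apart from those of the subunit genes.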

How the data were processed

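RNA from E16 cortices (3 control and 2 cKO libraries) had been depleted of ribosomal RNA and prepared with a directional kit. The authors mapped reads to mm10 with TopHat2, kept proper pairs that were unique and not duplicated, and deposited FPKM per gene and library from Cuffdiff and cummeRbund; versions, annotation and strand setting were not given in the sources used here. Genes were matched by name. Names of small RNAs were left out (63 of 1242 reached the mean minimum), and log2(FPKM + 0.1) was fitted for the 14692 genes whose mean reached 0.1 FPKM with limma 3.58.1 (R 4.3.3, lmFit and eBayes with a trend), with Benjamini-Hochberg adjustment over all of them. Fold changes are on this scale, which understates those of low genes. Positions are from RefSeq GRCm38.p6, opposite-strand genes from GENCODE.

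Sex was read from Y-linked transcripts. Depth was estimated from 858 long genes of 1 transcript, at which between 71.4% and 88.9% of the values used came within 0.25 of whole fragments. Python 3.11.15 made the summaries.

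The subunits, the gene lists and the tests were chosen with earlier results of these data known. Named genes are the 10 subunits, Uhrf1, the genes of the ratios and the 2 highest markers each of the progenitor and cycling lists. Members of each further list are named if past an unadjusted p of 0.05 without overlap (at most 4), or else its 2 with the highest mean. Cdkn2a, whose groups overlap, and Hoxc9 are named because so few genes of their lists were tested. Sox17, Tbx15, Hba-a1 and Hba-a2 are named for their part in a sum or count. The values of 1 further gene that the rule names are not reported here. It was left out of its list, for which no count past a threshold is given.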

Additional observations from a re-analysis of the deposited data

How the results depend on the processing

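Of 140 values of the 10 subunits under 14 alternatives, 124 kept their direction and their side of an unadjusted p of 0.05. The sign of Rnf2 turned to 0.0619 with quantile normalization and 0.0934 with scaling to the summed FPKM without small RNAs, and with each library left out its log2 fold change lay between -0.143 and 0.0379, positive without MG17 or MG18. Ezh1 turned to 0.126 with that scaling and 0.0204 with scaling by the median ratio, and lay between -0.0503 and 0.0175 with each library left out, positive without MG15 or MG18. Jarid2 lay between -0.0524 and 0.284, negative without MG17 or MG19. The number of subunits higher at an unadjusted p under 0.05 went from 0 to 1 (Bmi1) with quantile normalization and with scaling to the summed FPKM, and the number lower from 1 (Ezh2) to 0 with scaling to the summed FPKM and to between 0 and 1 with each library left out. Leaving out MG18 or MG19 leaves 1 cKO library, assumed to vary like the controls. Over all genes, 421 higher and 171 lower past an unadjusted p of 0.05 and 2-fold became 152 and 24 with a pseudocount of 1 and 171 and 64 at a mean of at least 1 FPKM, and the lower count 280 with quantile normalization. With each library left out they lay between 381 and 584 and between 155 and 310. At an adjusted p under 0.05, 161 higher and 24 lower became 98 and 14 at a mean of at least 1 FPKM, and between 41 and 128 and between 2 and 20 with each library left out. The cause was not tested. No paired analysis was possible because the labels carry no replicate numbers. The depth of the cKO libraries, about 8100000 and 9900000 fragments, limits genes under 1 FPKM such as the Hox genes.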

Other observations

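Kdm6a, an X-linked H3K27 demethylase that escapes X inactivation, was chosen after its values were seen. It was measured at 9.36, 15.3 and 9.94 FPKM in MG15, MG16 and MG17 and at 9.59 and 13.8 FPKM in MG18 and MG19. The higher values were those of MG16 and MG19, the libraries without Y-linked transcripts, and its log2 fold change between cKO and control was 0.03 (adjusted p = 0.969, limma).

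Kmt2d, another trithorax-group methyltransferase, was also chosen after its values were seen. It was measured at 1.53, 1.66 and 1.38 FPKM in controls and at 2.33 and 2.13 FPKM in cKO, both above every control (log2 fold change 0.52, unadjusted p = 0.0727, limma). Kmt2c and Ash1l, which act on the same side, had overlapping groups with log2 fold changes of 0.23 and 0.21.

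Epop, an accessory subunit of PRC2 listed as E130012A19Rik and chosen in the same way, was measured at 3.43, 3.62 and 2.67 FPKM in controls and at 4.40 and 4.501 FPKM in cKO (log2 fold change 0.46, unadjusted p = 0.0766, limma). Rbbp7, the paralog of Rbbp4, was measured at 45.0, 39.4 and 41.3 FPKM in controls and at 33.5 and 35.9 FPKM in cKO (log2 fold change -0.27, unadjusted p = 0.102, limma). For both genes the groups did not overlap, in opposite directions.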
